A study of Mus musculus with 2 samples.

Results

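B-lineage cells made up 176 of the 23101 cell barcodes kept from mouse bone marrow cultures that had been grown to yield macrophages. They were chosen by RNA of Cd79a and Cd79b, the genes of the signalling pair of the B-cell receptor. A member had at least 3 UMIs (unique molecular identifiers, each standing for 1 captured RNA molecule) of these genes together, at a level of at least 5 per 10000 UMIs of the barcode. The rule found 109 members among 12123 kept barcodes of the THP library and 67 among 10978 of the vehicle library.

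The marrow came from wild-type 129Sv mice, and both cultures were kept in 10% fetal bovine serum with 50 ng/ml macrophage colony-stimulating factor (M-CSF). On day 7 the THP culture was given 1 µg/ml of a truncated form of Tamm-Horsfall protein (THP, or uromodulin, secreted by kidney tubules) that cannot polymerize, and the vehicle culture was given 5% dextrose, each for 18 h. Dead cells were depleted before droplet capture, and the labels do not say how many animals or dishes entered each library. With 1 library per group no difference has a replicate check, treatment cannot be told apart from culture dish or library preparation, and no p-value is given. Intervals are exact 95% Poisson or Clopper-Pearson intervals and cover counting error only.

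B cells arise in the bone marrow from progenitors that rearrange their immunoglobulin genes under the transcription factors Ebf1 and Pax5. Precursors first show a surrogate light chain (Vpreb1, Igll1) and the recombinases Rag1 and Rag2, then carry IgM, later IgD and the surface protein CD20 (Ms4a1), and on activation may become plasma cells, which switch off Pax5 and put much of their RNA into antibody. Growth of B-cell precursors in culture depends on interleukin-7, whereas M-CSF acts on the macrophage lineage.

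The sequences bearing on these cells are a light-chain V gene that recurred among the members and octamer sites upstream of B-lineage genes. The V gene is Igkv14-126 on chromosome 6, and its V exon in the GENCODE M21 annotation of GRCm38, chr6:67896345-67896642 on the plus strand, is printed because it was the most frequent kappa V gene among the members in which one was detected (11 of 25). Capitals mark the 27 of 298 bases at which it differs from Igkv14-111, the closest of 99 other kappa V genes compared without gaps. The reference is that of C57BL/6 mice, so the 129Sv segments themselves may differ, and UMIs of related V genes may have been assigned to one another.
Igkv14-126: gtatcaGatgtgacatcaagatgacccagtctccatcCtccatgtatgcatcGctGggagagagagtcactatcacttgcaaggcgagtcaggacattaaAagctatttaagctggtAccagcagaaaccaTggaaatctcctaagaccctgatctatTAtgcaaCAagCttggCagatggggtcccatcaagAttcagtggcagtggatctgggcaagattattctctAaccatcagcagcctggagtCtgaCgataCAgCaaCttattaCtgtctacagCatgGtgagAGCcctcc

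The octamer ATGCAAAT is bound by the factors Oct-1 and Oct-2 together with the B-cell coactivator encoded by Pou2af1, itself a leading gene of the members. RefSeq windows of the 250 bases before the transcription start (GRCm38.p6) were matched for 15 of 26 B-lineage genes and searched for the octamer on both strands. It was present for 3 of the 15 genes, which had 17 windows in all. Counted by window and not by gene, it was present in 1.60% of 32851 windows of the same length. The 26 genes included the leading genes of these same data, so the counts are a description. The 30-base stretches around each match are given with the octamer, in either orientation, in capitals.
Vpreb3, 45 bases before the start, chr10:75948244-75948273, plus strand: tcagtgggctgATTTGCATgctctattgtg
Blnk, 130 bases before the start, chr19:40994333-40994362, minus strand: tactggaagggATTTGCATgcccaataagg
1810046K07Rik, 86 bases before the start, chr9:51328986-51329015, minus strand: ctgcattggggATGCAAATtggagagaaac
1810046K07Rik, 55 bases before the start, chr9:51328955-51328984, minus strand: tacaccagaggATTTGCATttaatcaaatc
The pattern CCCNNGGG, a core of Ebf1 sites, was present for 3 of the 15 genes (Bank1, Cd22 and Spib), against 11.8% of all windows. So few genes do not set them apart from that share. A match is a string of letters and not evidence of binding. Cd79b, Blk, Ikzf3, Iglc1, Iglc2, Iglc3, Ms4a1, Ighd, Ly6d and Mzb1 were among those not matched.

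Members were 0.899% of kept THP barcodes (0.739 to 1.08%) and 0.610% of kept vehicle barcodes (0.473 to 0.774%). They held little RNA. Members had a median of 2511 UMIs and 1005 genes with THP and of 3165 UMIs and 1309 genes with vehicle, which is 15.6% and 18.4% of the median UMIs of all kept barcodes (16113 and 17223). Total UMIs per member ran from 1144 to 26467 with THP and from 1280 to 58960 with vehicle, and summed to 500335 and 360491. The median mitochondrial share was 5.09% and 5.33%. The libraries had 38 kept barcode sequences in common, none of them a member.

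**Figure D1:**
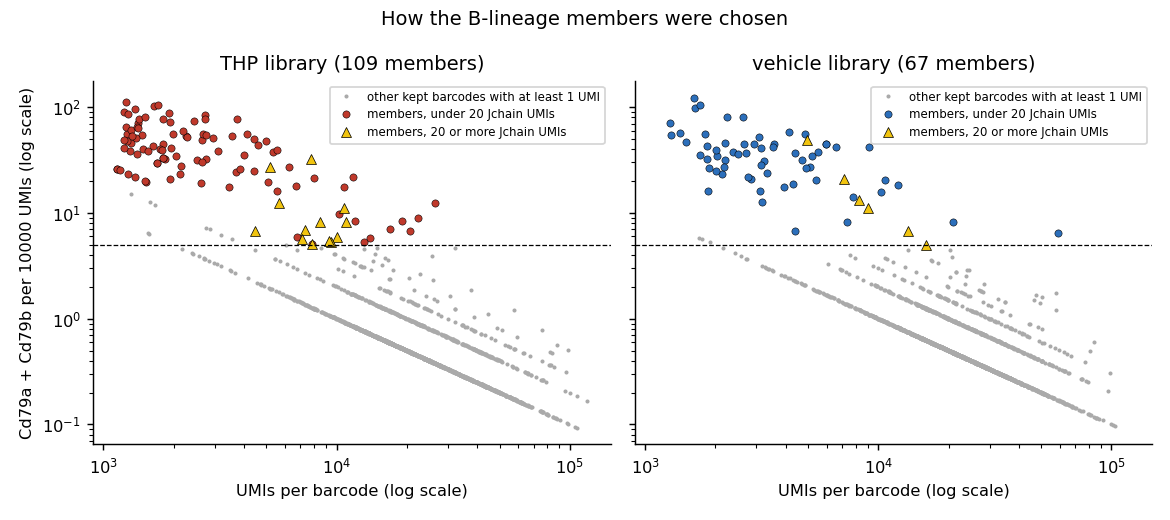
Each point is a kept barcode with at least 1 Cd79a or Cd79b UMI, placed by its total UMIs (log scale) and its Cd79a plus Cd79b UMIs per 10000 (log scale), with the rule's limit of 5 as a dashed line and members with 20 or more Jchain UMIs as triangles. Most members lie well above the limit at low total UMIs, while the Jchain-rich members lie mainly near it, at 4485 to 15964 UMIs.

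The level of Cd79a plus Cd79b, which chose the members, had a median of 34.2 per 10000 UMIs with THP (5.10 to 111.8) and 34.3 with vehicle (5.01 to 123.2). The barcodes just outside the limit, with at least 3 UMIs, reached 4.93 and 4.46. Below 10 per 10000 lay 19 THP members and 6 vehicle members, deep barcodes that held 43.6% and 33.6% of all member UMIs. Both Cd79a and Cd79b were detected in 103 of 109 and 65 of 67 members. Among other kept barcodes a Cd79a UMI was found in 0.541% (THP) and 0.376% (vehicle), and a Cd79b UMI in 12.3% and 15%.

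Markers that the rule did not use were those of the B lineage. At least 3 of 14 further B identity genes were detected in 82 of 109 THP members (75.2%, 66.0 to 83.0%) and in 60 of 67 vehicle members (89.6%, 79.7 to 95.7%), and 3 THP members had none. Ranked by level in members over all other kept barcodes, as a description, the leading genes were Pax5, which commits cells to the B lineage, the lambda light-chain constant genes Iglc1, Iglc2 and Iglc3, the IgM Fc receptor gene Fcmr, Ms4a1, 1810046K07Rik, Vpreb3, the Src-family kinase gene Blk, Fcrla, Ighd, Ly6d, Pou2af1 and Mzb1, beside Cd79a. Pax5 was at 103 CPM (counts per 1000000 UMIs) in members of both libraries pooled and at 0.025 CPM in the rest. Ms4a1 was found in 73.9% of members and in 0.209% of the other barcodes, which are far deeper. In a comparison at equal depth, with each barcode thinned to 1500 UMIs, Ms4a1 was found in 49.4% of THP and 63.5% of vehicle members and in at most 0.2% of macrophage reference barcodes (those with at least 20 C1qa, C1qb and C1qc UMIs per 10000).

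**Figure D2:**
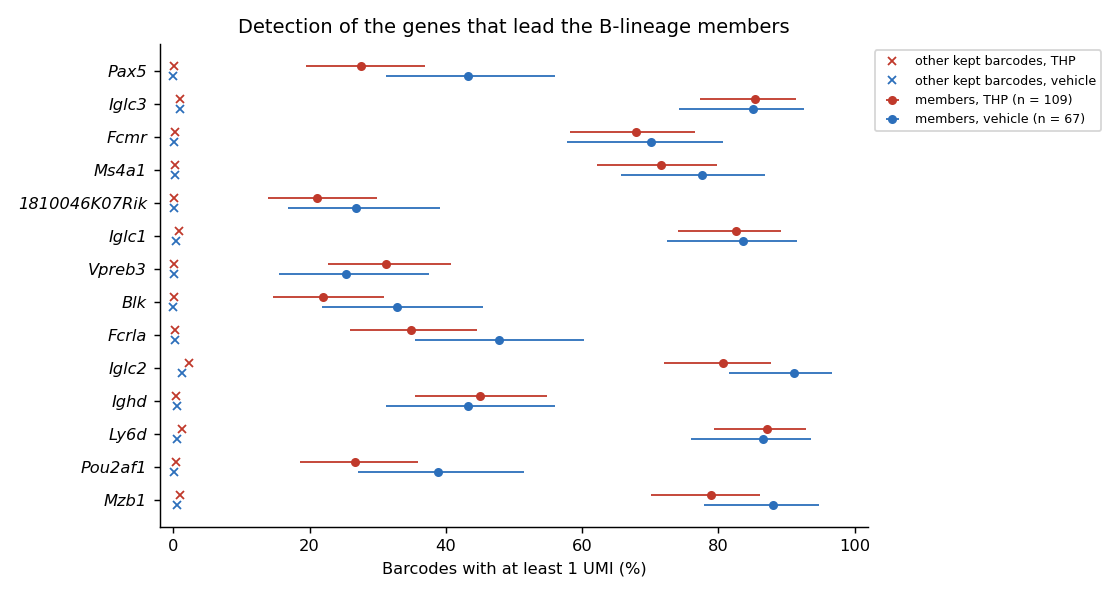
Share of members with at least 1 UMI (circles with exact 95% intervals, THP in red and vehicle in blue) and of other kept barcodes (crosses), in percent, for 14 leading genes. The crosses lie near 0 although those barcodes hold more UMIs, and the member intervals of the libraries overlap for each gene drawn.

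Markers of mature B cells were found in the members, and UMIs of 11 early-stage genes were few. No UMI of Vpreb1, Vpreb2, Igll1, Dntt, Rag1 or Rag2 was found in any member, which allows up to 3.33% of THP members and 5.36% of vehicle members with such a UMI. These 6 belong to a list of 11 early-stage genes, of which 4 had UMIs, 39 in 23 THP members and 46 in 19 vehicle members. Cd93, a surface marker of immature B cells that myeloid cells also express, gave 23 and 19 of them in 13 and 11 members. Il7r, the interleukin-7 receptor gene, gave 6 and 10, Sox4 8 and 10, and Lef1 2 and 7. Vpreb3, which is not among the 11, gave 79 UMIs in 34 THP members and 45 in 17 vehicle members. At least 2 UMIs of Ms4a1, Ighd, Cr2 (a complement receptor) and Fcer2a (CD23) together were found in 68 of 109 THP members (62.4%, 52.6 to 71.5%) and 44 of 67 vehicle members (65.7%, 53.1 to 76.8%). After thinning to 1500 UMIs, which left out 26 THP and 4 vehicle members, the shares were 36.1% (25.9 to 47.4%) and 42.9% (30.5 to 56.0%). The intervals overlap in either form. A further 28 THP and 17 vehicle members had neither that class nor the antibody state described next. Cr2 and Fcer2a contributed few UMIs, 3 with THP and 5 with vehicle, so the class rests on Ms4a1 and Ighd. Ly6d, a surface protein gene found on B cells, gave 1961 CPM in THP members and 1775 CPM in vehicle members, and the invariant chain gene Cd74, which serves antigen presentation, gave 3731 and 3842 CPM.

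A second state carried much antibody RNA and few or no UMIs of Ms4a1, Ighd and several B-cell transcription factors. Jchain, the gene of the chain that joins IgM and IgA into polymers, reached at least 20 UMIs in 13 THP members and 6 vehicle members, a limit chosen after its values were seen. In these, immunoglobulin genes and Jchain took a median of 45.6% (THP) and 50.3% (vehicle) of all UMIs, against 1.85% and 1.5% in the other members. None of the 19 was in the Ms4a1 and Ighd class. Ebf1 was found in 1 of 13 and 1 of 6, and Pax5, Spib, Bach2 and Ighd in none of either library, where 0 UMIs allow up to 35.3 and 62.8 CPM. Pax5 in the other members was at 106 CPM (76.5 to 143) with THP and 156 CPM (114 to 207) with vehicle. Other surface genes were present. Ly6d was found in 11 of the 13 and in all 6, at 2575 CPM against 1799 CPM in the other members with THP and 2026 against 1727 CPM with vehicle. Cd74 was found in all 19, at 3389 against 3822 CPM and at 3678 against 3874 CPM, and the tetraspanin gene Cd37 was found in 8 of 13 and 3 of 6.

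Several genes of antibody secretion were high in those same barcodes. Xbp1, a regulator of the secretory apparatus, was at 852 CPM (684 to 1048) in the 13 THP members and 116 CPM (85.1 to 155) in the other THP members. In the vehicle library it was at 1039 CPM (794 to 1334) and 156 CPM (114 to 207). Sdc1, the gene of the plasma-cell surface protein CD138, was at 507 CPM (380 to 664) against 30.3 CPM (15.7 to 52.9) with THP and at 255 CPM (143 to 421) against 29.8 CPM (13.6 to 56.6) with vehicle. Derl3, which serves protein export from the endoplasmic reticulum, was at 201 against 5.05 CPM and at 170 against 3.31 CPM. Of the other plasma cell genes listed, Mzb1 was also higher in both libraries. Tnfrsf17 gave 11 UMIs in 6 of the 13 THP members and 2 UMIs in 2 of the 6 vehicle members. It gave 0 UMIs in the other members of either library. With vehicle the intervals overlap (4.12 to 123 CPM against up to 12.2 CPM). Prdm1 was at 38.3 CPM (10.4 to 98.0) against 10.1 CPM (2.75 to 25.9) with THP, and at 170 against 13.3 CPM with vehicle. Irf4 was at 211 against 37.9 CPM with THP but at 68.1 against 82.8 CPM with vehicle. These values describe a split made on the same cells, so they carry no test.

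**Figure D3:**
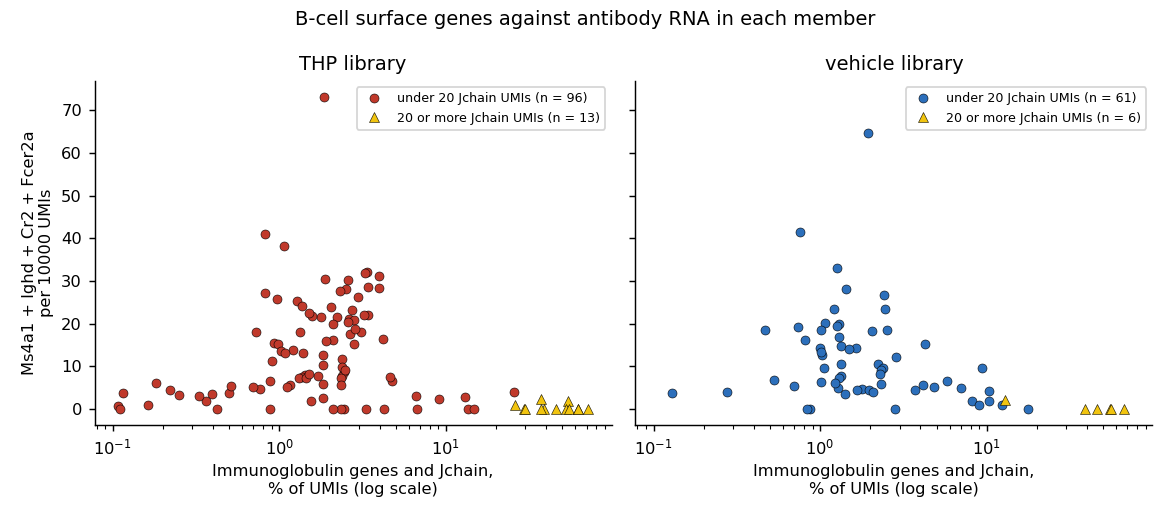
Each point is a member, placed by the share of its UMIs from immunoglobulin genes and Jchain (percent, log scale) and by its Ms4a1, Ighd, Cr2 and Fcer2a UMIs per 10000, with members of 20 or more Jchain UMIs as triangles. Triangles lie at the right at or near 0 on the vertical axis, with a median antibody share of 45.6% (THP) and 50.3% (vehicle), and the circles spread upwards at lower antibody shares.

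Of the heavy-chain constant genes Ighm was found most often. It was found in 106 of 109 THP members (median 10 UMIs, highest 1011) and in all 67 vehicle members (median 14, highest 1620). It was also found in 40.3% of other kept THP barcodes and 40.4% of other kept vehicle barcodes, which are deeper. At 1500 UMIs it was found in 90.4% and 100% of members, in 22.0% of barcodes high in MHC class II RNA in either library, and in 6.30% and 4.45% of the macrophage reference. Igha, the IgA heavy chain gene, gave 1188 UMIs in the THP library, of which 614 and 572 lay in 2 Jchain-rich members with no Ighm UMI, and 0 UMIs in the vehicle library. Against a floor of 3 UMIs over the vehicle members this is at least 285-fold higher, and it rests on those 2 barcodes. Both of them carried Igkv1-110. Ighg3 was found in 10 members of each library, with at most 5 UMIs in a member, and Ighg1, Ighg2b, Ighg2c and Ighe in none.

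Light-chain RNA of both kinds was found together in most members. Igkc was found in 105 of 109 and 65 of 67, a lambda constant gene in 106 and 67, and both in 102 and 65. Medians were low and alike, 16 UMIs of Igkc and 14 of lambda with THP, and 16 and 17 with vehicle. Igkc was also found in 31.3% of other kept barcodes, and at 1500 UMIs in 4.6% of THP and 2.5% of vehicle macrophage reference barcodes against 86.7% and 93.7% of members. High lambda levels came from few cells. In the THP library 1 member held 70.6% of 4492 Iglc2 UMIs, and in the vehicle library 1 member held 94.6% of 5105 Iglc3 UMIs. Iglc2 and Iglc3 are near-identical genes, so the assignment of UMIs between them is uncertain.

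V genes with at least 3 UMIs showed a recurrent kappa segment. Of 25 members with such an Igkv gene, 11 had Igkv14-126, printed above, 4 with THP and 7 with vehicle. Among members under 20 Jchain UMIs it was 9 of the 10 with an Igkv gene (3 of 3 with THP, 6 of 7 with vehicle), and among Jchain-rich members 2 of 15. The Jchain-rich members carried Igkv1-88 (4 members), Igkv1-110 (3) and others. Ighv4-1 led the heavy-chain segments in 5 members, and Ighv11-2, the usual partner of Igkv14-126 in phosphatidylcholine-binding B-1 cells, was found in 1 THP member, which also carried Igkv14-126. V genes were detected only where antibody RNA was plentiful, in 30 members in all, so these counts describe that minority.

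Compared between libraries, no gene of the B identity list passed a 2-fold difference in members. Genes usually made by myeloid cells were called in both directions, with Ccr2, Vcan, F13a1 and Mrc1 lower. Others were among the highest with THP, which holds for called genes with UMIs in at least 5 members. Igha (2374 against 0 CPM), the matrix protein gene Sparc (146 against 0) and the collagen gene Col1a1 (75.9 against 0) were higher than most of them but lay in 4, 2 and 2 members. Of 3275 genes with at least 20 summed member UMIs in a library, 103 were at least 2-fold higher with THP (3.15%) and 145 at least 2-fold lower (4.43%), on the scale of the log2 ratio of CPM + 10, THP over vehicle. The median over these genes was 0.01. The same rule called 0.331% of 14790 genes in each direction in the other kept barcodes, whose sums were 224325149 and 207301641 UMIs. Member UMIs are few: for 27 of the 103 higher genes over 50% of the THP UMIs lay in 1 barcode, and for 16 of the 145 lower genes over 50% of the vehicle UMIs did.

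Of the 15 B identity genes measured, 0 were called in either direction, with a median log2 ratio of -0.16. Cd79a and Cd79b, which the rule used, are among them, and the other 13 had 0 calls and the same median. So few genes with no call do not set the list apart from all genes, of which 3.15% and 4.43% were called. Without the top 5% of UMIs, which left out the deepest vehicle member (58960 UMIs), Blnk and Ikzf3, a lymphoid transcription factor gene, were called lower. Without members of 10 C1q UMIs Ikzf3 was, and at a pseudocount of 1 CPM 1 gene was. Cd79a gave 605 UMIs in 105 THP members and 491 in 66 vehicle members, 1209 against 1362 CPM (log2 ratio -0.17). Ebf1 gave 182 UMIs in 65 members and 126 in 46, 364 against 350 CPM (log2 ratio 0.06, -0.27 to 0.39). Vpreb3 gave 79 UMIs in 34 members and 45 in 17 (log2 ratio 0.32, -0.19 to 0.84). Pax5 gave 42 UMIs in 30 members and 47 in 29 (log2 ratio -0.58, -1.15 to -0.00), and Blnk, the adaptor of B-cell receptor signalling, gave 57 in 41 and 78 in 40 (log2 ratio -0.87, -1.35 to -0.39). The receptor signalling list, from the kinases Syk, Lyn and Btk to the phosphatase Ptpn6, had 0 of 10 measured genes called and a median of -0.29. No gene was called among 5 late-stage genes (median 0.01), 6 plasma cell genes (0.18), 7 activation genes such as Cd69 and Cd83 (0.21), and 6 genes of the BAFF receptors and survival (-0.27). Of 9 MHC class II genes only Ciita, their transactivator, was called, lower at 13 against 26 UMIs (log2 ratio -1.19, -1.97 to -0.38). Ciita reached the UMI minimum in the vehicle library only, so its direction was set by the filter. The class II chain gene H2-Aa was at 732 and 849 CPM (log2 ratio -0.21, -0.43 to 0.01) and H2-Ab1 at 672 and 713 CPM.

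NF-kB target genes had a lower median ratio in members than in the rest of the culture. Over the 10 measured targets the median log2 ratio was 0.06 in members and 0.97 for the same genes in the other kept barcodes. Of the 19 targets listed 9 were not measured, and Relb, Bcl2a1b, Icam1 and Ier3 reached the minimum of 20 UMIs in the THP library only. Nfkbia, the inhibitor that NF-kB itself induces, gave 173 UMIs in 50 THP members and 79 in 34 vehicle members, a log2 ratio of 0.63 (0.26 to 1.02), against 1.48 in the rest. Bcl2a1b was at 0.06 against 1.64, Relb at 0.06 against 1.03, Nfkb1 at -0.43 against 0.52, and Rel, an NF-kB subunit prominent in B cells, at -0.99 against 0.02. Icam1 (28 against 5 UMIs) and Ier3 (20 against 3 UMIs) were called higher in members, with log2 ratios of 1.47 and 1.45, close to the 1.57 and 1.30 of the rest. Without members under 10 Cd79a plus Cd79b UMIs per 10000 the median was -0.15 over the 5 targets still measured. Member ratios have wide intervals, and the difference between members and the rest was not tested.

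Of 14 inflammatory cytokine and chemokine genes 8 were not measured in members, and Il1b, Cxcl2, Ccl3, Tnf and Ccl22 reached the minimum of 20 UMIs in the THP library only. The filter therefore let these 5 be called higher but not lower, and no count or median of the list is read. Il1b gave 51 UMIs in 9 THP members, 26 of them in 1 barcode, and 0 in vehicle members, which is at least 12.2-fold higher against the floor of 3 UMIs. Cxcl2, a neutrophil-attracting chemokine gene, gave 115 UMIs in 21 THP members and 10 in 3 vehicle members (log2 ratio 2.67, 1.92 to 3.41). Ccl2 gave 82 UMIs in 26 members against 22 in 6, Ccl3 29 in 11 against 3 in 3, and Tnf 22 in 9 against 3 in 2. Cd14, a macrophage lipopolysaccharide receptor gene, gave 157 UMIs in 25 THP members against 20 in 6 vehicle members (log2 ratio 2.31). In the rest its log2 ratio was 1.5.

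Most of these UMIs lay in the deep members nearest the rule's limit. The 19 THP members under 10 Cd79a plus Cd79b UMIs per 10000 held 47 of the 51 Il1b UMIs, 101 of the 115 Cxcl2 UMIs and 102 of the 157 Cd14 UMIs. Above that level Cxcl2 was at 14 against 3 UMIs and Cd14 at 55 against 8, but 35 of the 55 lay in the deepest THP member (26467 UMIs) and the other 89 members held 20. The C1q genes of macrophages lay mainly in the same members. C1qa, C1qb and C1qc summed to 163 UMIs in the 19 THP members and 15 in the other 90, and to 186 in 6 vehicle members and 3 in the other 61, the 186 being those of the deepest vehicle barcode alone. That barcode decided their direction. The log2 ratio of C1qa was -0.80 with it and 3.81 without the top 5% of UMIs, that of C1qb -0.44 and 2.87, and that of C1qc -0.24 and 3.22. The median of the macrophage list was -0.44 and 1.84. All 10 macrophage markers were detected in members, summing to 4289 CPM (4110 to 4475) with THP and 7412 CPM (7134 to 7699) with vehicle, mostly Apoe, against 6504 and 7155 CPM in the macrophage reference. Apoe alone gave 3516 and 6466 CPM in members, in 52 THP and 45 vehicle members, against 704 and 751 CPM in the macrophage reference. It thus made up most of the member sums but a small part of the reference sums. Whether the cytokine RNA belongs to B-lineage cells or to macrophage RNA in the same droplets was not tested.

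Elane and Mpo, granule genes of neutrophil precursors and 2 of 9 neutrophil genes, were called higher. Of all genes measured 3.15% were called higher, and Elane reached the UMI minimum in the THP library only. The list median was 0.71 against -0.65 in the rest. Over the alternatives it ranged from 0.38 with equal weight per member to 1.15 without each gene's leading barcode. Over 50% of the THP UMIs of Elane, Mpo and Prtn3 lay in 1 barcode each, and with equal weight per member the log2 ratio of Mpo was -0.072. Prtn3, a granule protease gene, gave 384 UMIs in 27 THP members and 31 in 23 vehicle members, but 202 of the 384 lay in 1 barcode. Elane gave 123 against 9 UMIs, with 85 in 1 barcode, and Mpo 199 against 24, with 141 in 1 barcode. S100a9 was found in 106 of 109 and 65 of 67 members, at 8850 and 4508 CPM (log2 ratio 0.97), against 14615 and 17744 CPM in the rest. The neutrophil list as a whole summed to 16867 CPM (16509 to 17230) and 9046 CPM (8738 to 9362) in members. Others among the highest 10 were Hp, Slpi, Pla2g7 and Pf4, the last with 181 UMIs in 28 THP members against 25 in 8. Stromal genes such as Sparc (73 against 0 UMIs) came from 2 THP members, and all 4 reached the UMI minimum in that library only. T and NK genes reached 106 and 108 CPM in sum with none measured, and mast cell and erythroid genes gave 0 UMIs.

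**Figure D4:**
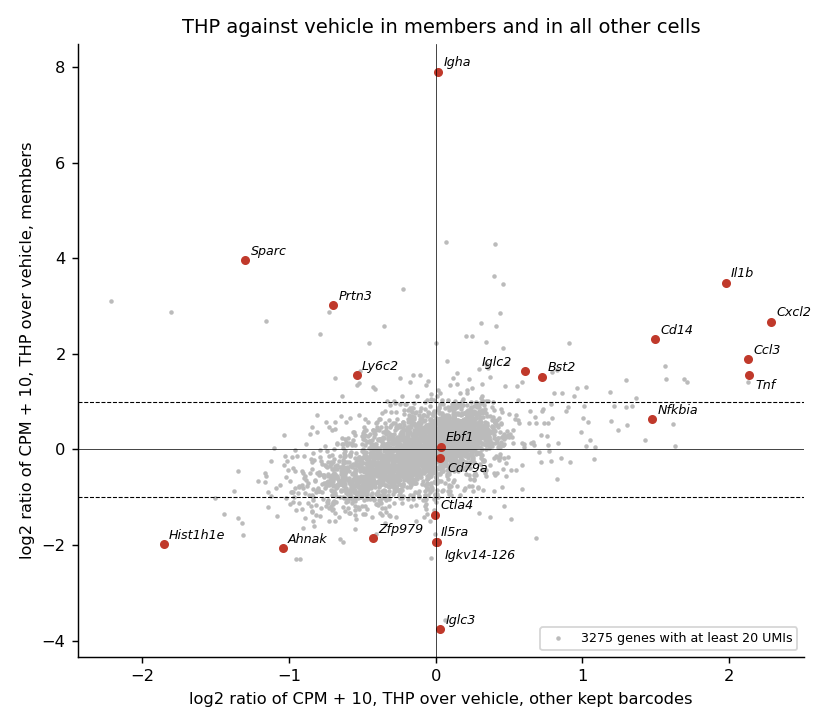
Each point is a gene with at least 20 member UMIs in a library, placed by its log2 ratio of CPM + 10 (THP over vehicle) in other kept barcodes (horizontal) and in members (vertical), with 2-fold limits as dashed lines and named genes in red. Il1b, Cxcl2 and Cd14 are high on both axes, and Nfkbia is at 1.48 on the horizontal and 0.63 on the vertical axis. Il5ra is low in members, with a log2 ratio of -0.00 in the rest, where the CPM + 10 scale holds genes far below 10 CPM near 0. Il1b and Cxcl2 reached the UMI minimum in the THP library only, and Il5ra in the vehicle library only. The filter let each of these genes be called in 1 direction only in members.

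Of 14 interferon-stimulated genes 4 were measured in members, and Bst2 and Irf7 were called higher, Irf7 with the UMI minimum reached in the THP library only. Bst2, the gene of tetherin, gave 93 UMIs in 24 THP members and 21 in 10 vehicle members (log2 ratio 1.52, 0.90 to 2.16). Irf7 gave 25 UMIs in 10 members against 5 in 5, and its log2 ratio was 0.05 above 10 Cd79a plus Cd79b UMIs per 10000, where that of Bst2 was 1.81. Ifi27l2a gave 448 UMIs in 71 THP members and 183 in 33 vehicle members (log2 ratio 0.81, 0.56 to 1.06). Ly6c2, which monocytes, plasmacytoid dendritic cells and plasma cells share, was higher in members (275 UMIs in 28 against 65 in 17, log2 ratio 1.56) and at -0.54 in the rest. Among the 5 monocyte genes it was the only one called higher. Ccr2, Vcan and F13a1 were called lower, and the list median was -1.60 in members and -0.83 in the rest. Those 3 genes reached the UMI minimum in the vehicle library only, so their direction was set by the filter. Siglech, a defining plasmacytoid gene, was at 6.00 and 2.77 CPM.

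**Figure D5:**
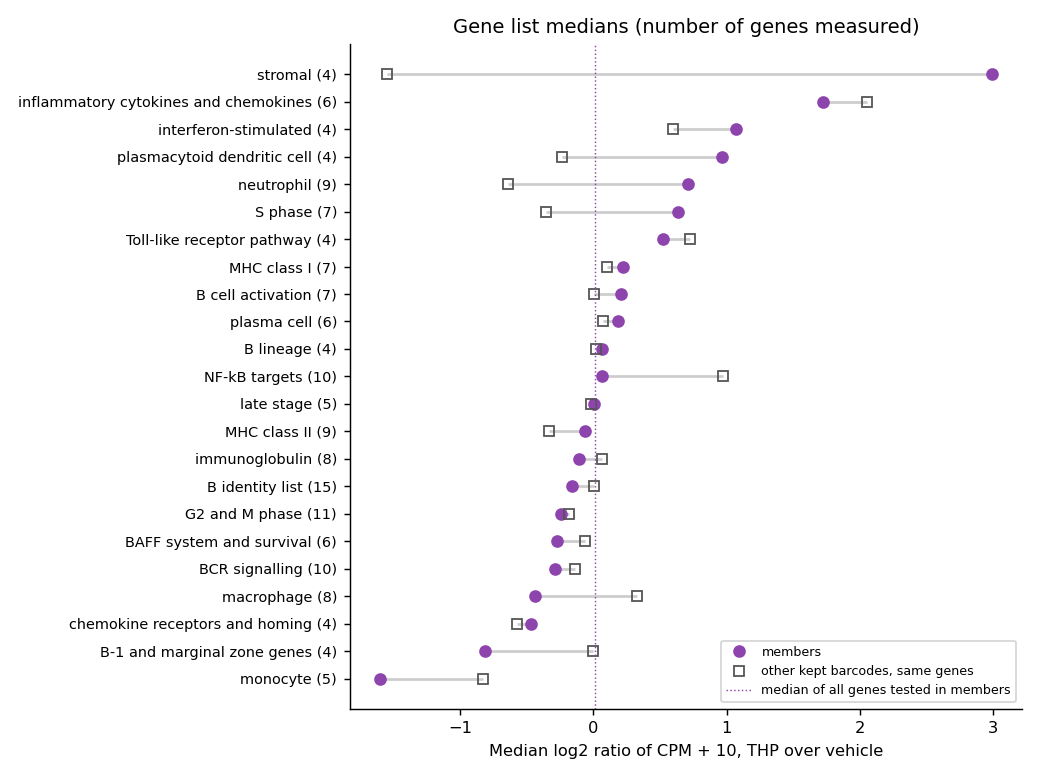
Median log2 ratio of CPM + 10, THP over vehicle, for each gene list with the number of genes measured, in members (filled circles) and for the same genes in other kept barcodes (open squares), with the median of all genes measured in members as a dotted line. The NF-kB list is at 0.06 in members and 0.97 in the rest, the B identity list at -0.16 and 0.00, and the stromal and monocyte lists rest on few barcodes. B identity genes such as Pax5 (0.036 and 0.014 CPM) are far below 10 CPM in the rest, and the CPM + 10 scale holds their ratios there near 0. The inflammatory list is drawn but not read, since 5 of its 6 measured genes reached the UMI minimum in the THP library only.

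Il5ra was lower with THP and is a gene of B-1 cells, which respond to interleukin-5. It gave 8 UMIs in 8 of 109 THP members and 32 UMIs in 20 of 67 vehicle members, with at most 1 and 4 UMIs in a member, 16.0 against 88.8 CPM (log2 ratio -1.93, -2.69 to -1.08). It reached the minimum of 20 UMIs in the vehicle library only, so its direction was set by the filter. At 1500 UMIs it was found in 1.2% of THP and 15.9% of vehicle members. Above 10 Cd79a plus Cd79b UMIs per 10000 it was found in 7 of 90 and 19 of 61. Its log2 ratio ranged from -2.40 to -1.07 over the alternatives tried, and in the rest of the culture it was -0.00. The CPM + 10 scale holds genes far below 10 CPM near 0, so the value of the rest is not set against that of members. In a list of 8 B-1 and marginal zone genes chosen after the values were seen, Ctla4 was the other gene called, lower at 12 against 28 UMIs with 10 of the latter in 1 barcode. Bhlhe41 (61 against 41 UMIs, log2 ratio 0.09) and Cd9 (50 against 44, -0.26) were not, and Cd5 gave 1 UMI in all. Like Il5ra, Ctla4 reached the UMI minimum in the vehicle library only.

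The lowest ratios otherwise included immunoglobulin segments and genes of several other kinds. Iglc3 (log2 ratio -3.75) and Iglv1 (-3.57) rest on 1 vehicle barcode with 4828 and 94 of the UMIs. Igkv14-126 gave 27 UMIs in 5 THP members and 85 in 10 vehicle members (log2 ratio -1.94). Ahnak, a giant scaffold protein gene, gave 43 against 141 UMIs (log2 ratio -2.06, against -1.04 in the rest), the linker histone gene Hist1h1e 25 against 82 (-1.99, against -1.85), and Zfp979 16 UMIs in 15 members against 51 in 29 (-1.85). Ccr2 was at 7 against 39 UMIs, with 19 of the latter in 1 barcode. Ppfia1 was at 5 against 24 UMIs and Fam208b at 4 against 20. Zfp979, Ccr2, Ppfia1 and Fam208b reached the minimum of 20 UMIs in the vehicle library only, so their direction was set by the filter. Itga4, the integrin that holds B cells in the marrow, was called with 46 UMIs in 31 THP members and 89 in 38 vehicle members (log2 ratio -1.33, -1.83 to -0.84, against -0.69 in the rest).

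Ratios in members were lower for longer transcripts. Over 3274 genes with an annotated length, Spearman's rho between the longest transcript and the log2 ratio was -0.49, given as a description since genes share the same 2 libraries. From the shortest to the longest of 5 groups of about equal size the median log2 ratio was 0.27, 0.16, 0.04, -0.20 and -0.46. Of the 145 genes called lower 76 lay in the longest group, and of the 103 called higher 42 lay in the shortest. Its part in the single calls, such as Ahnak and Itga4, was not tested.

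Cell cycle lists held 1 call each. Of 7 S-phase genes Mcm7 was called higher (22 against 6 UMIs) with a list median of 0.63, and of 11 G2 and M genes Ube2c was called lower, with a list median of -0.24. Without the top 5% of UMIs, which left out 1 vehicle member, the G2 and M median was 0.76 with 4 genes higher and 0 lower, and without each gene's leading barcode it was 0.63. Mcm7 reached the UMI minimum in the THP library only. Of the 80 Ube2c UMIs in vehicle members 60 lay in 1 barcode. Mki67 was found in 16 of 109 THP members and 8 of 67 vehicle members, with 72 and 62 UMIs, and 37 of the 62 lay in the deepest vehicle barcode. Called genes outside the naming rule (Ciita, Icam1, Ier3, Irf7, Tnf, Mcm7, Ctla4, Mrc1, Igha and, under an alternative, Ikzf3) are named because of their values.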

How the data were processed

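Droplet RNA libraries of a THP-treated and a vehicle-treated culture were analysed. The authors deposited raw UMI counts per gene and barcode, in matrices of software version 3.1.0 and format version 2 per the file headers. Cell Ranger, STAR, bcl2fastq and mm10 are named in the submitters' processing notes; their roles and settings were not given in the sources used here. Barcodes were kept with at least 500 genes, at least 1000 UMIs and at most 10% mitochondrial UMIs. No doublet caller was run; leaving out the top 5% of barcodes by UMIs was an alternative. UMIs were summed over members per library and expressed as CPM. A gene was measured with 20 UMIs in a library and called at 2-fold on the CPM + 10 scale, which understates changes of low genes. The rule was checked on simulated counts. Named were the markers, the 10 highest and 10 lowest called genes with UMIs in at least 5 members of the higher library, the 5 highest genes of each list and the 15 leading genes. Members, lists and rules were chosen with earlier results of these data known. Values were computed with Python 3.11.15, numpy 2.4.6, scipy 1.17.1, pandas 2.3.3 and edgeR 4.0.16 (TMM and RLE factors only). Coordinates are those of GENCODE M21 (GRCm38), 1-based.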

Additional observations from a re-analysis of the deposited data

Results flagged for a closer look

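A signal appeared in barcodes that the comparisons above do not use. Among kept barcodes that were not members, 40 of 12014 in the THP library (0.333%, 0.238 to 0.453%) and 20 of 10911 in the vehicle library (0.183%, 0.112 to 0.283%) held 20 or more Jchain UMIs. The THP share was above that of the control library, and the difference has no replicate check. Sdc1 was found in 38 of the 40 and 18 of the 20, Mzb1 in all of them, and Pax5 in none. They missed the rule, with a median Cd79a plus Cd79b level of 1.73 (THP) and 2.23 (vehicle) per 10000 UMIs from medians of 2 and 4 UMIs, and 10 of the THP barcodes had none. Immunoglobulin genes and Jchain took a median of 57.4% and 50.9% of their UMIs, and they held 92.8% and 96.2% of the Igkc UMIs outside the members. Counting them with the members, barcodes of 20 or more Jchain UMIs were 53 of 12123 kept THP barcodes (0.437%, 0.328 to 0.571%) and 26 of 10978 kept vehicle barcodes (0.237%, 0.155 to 0.347%).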

How the results depend on the processing

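No paired analysis was possible because each group has 1 library, and no library could be left out. Requiring 3 other B identity genes gave member shares of 0.676% (THP) and 0.547% (vehicle, 60 of 10978) and a THP late-stage share of 73.2%. Late-stage shares were 80.7% (THP) and 86.6% (vehicle) with 1 UMI of the list, and 36.1% and 42.9% after thinning. Counts of called genes moved by over 1.5 times as follows. With at least 10 Cd79a plus Cd79b UMIs per 10000, 93 were lower, and 25 of the 103 higher and 58 of the 145 lower calls were shared with the main set. Higher calls were 237 without the top 5% of UMIs (the deepest vehicle barcode), 172 without members of 10 C1q UMIs and 169 with equal weight per member. Higher and lower calls were 32 and 20 at a pseudocount of 50 CPM, 181 and 285 at a minimum of 10 UMIs, 41 and 29 at 50 UMIs, 351 and 540 at 1.5-fold, 39 and 19 at 3-fold, and 232 and 96 without each gene's leading barcode (chosen after seeing the data, as was leaving out Jchain-rich members). A pseudocount of 1 CPM gave 238 lower. The higher genes' share of calls, 41.5%, was 43.2% with TMM and 41.0% with RLE factors, 52.8% at 10 per 10000, 64.8% without the top 5% and 70.7% without leading barcodes. Reversed ratios among called genes were Iglc2 at -0.30 (10 per 10000), -0.48 (3 other B genes) and -0.64 (without Jchain-rich members), Iglc3 at 0.27, 0.10 and 0.077 under the same and 0.31 without the leading barcode, Iglv1 at 0.23 and Slpi at -0.84 (10 per 10000), Mpo at -0.072 (equal weight), and Ube2c at 0.51 (10 per 10000), 0.27 (without the top 5%) and 0.011 (without the leading barcode). Among genes not called, C1qa, C1qb and C1qc went from -0.80, -0.44 and -0.24 to 3.81, 2.87 and 3.22 without the top 5% of UMIs, and the ratio of Top2a ranged from -0.91 to 0.86. The causes were not tested. Few UMIs per member limit all ratios of low genes.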
